A study of Mus musculus with 16 samples.

Results

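Opposite-strand long non-coding RNAs (lncRNAs) carry the name of a protein-coding gene followed by "os" and are transcribed from the other DNA strand beside or across that gene, the sense gene. They were examined by RADIP, which ligates RNA to nearby DNA in crosslinked nuclei by way of a bridge adaptor and pulls down the chimeric molecules with an antibody against trimethylated lysine 27 of histone H3 (H3K27me3). Members were the lncRNAs of the tables of significant RNA–DNA pairs whose name ends in "os" or in "os" and a number. There were 51 of them among 1282 lncRNA names and 12080 RNA names in all. All 51 have a protein-coding sense gene on the opposite strand in the annotation used here, and 45 are annotated as antisense RNAs.

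Both conditions came from PGK12.1 cells, a mouse embryonic stem cell (mESC) line, grown with leukemia inhibitory factor and crosslinked with 1% formaldehyde. H3K27me3-RADIP was selected with the antibody, and Input was a share of the same kind of chimeric molecules kept without antibody selection, so no genotype or drug differed. The labels list 8 libraries per condition, more than the biological replicates that the methods describe, and do not say which libraries belong to 1 replicate. The authors merged them into 1 table per condition, and the tables show no spread between replicates. Intervals below are therefore 95% intervals for counting error only, and no p-value is given. Input held 1305107 pairs and H3K27me3-RADIP held 1415135. Of 10 stem cell marker genes, 4 had RNA listed in Input and 5 in H3K27me3-RADIP, led by Esrrb with 2388 and 2500 pairs, while Pou5f1 and Nanog were not listed in either. Of the 4 fibroblast markers none was listed in Input and 1 in H3K27me3-RADIP, Col1a1 with 7 pairs. Of the 4 neural markers 1 was listed in Input and 2 in H3K27me3-RADIP, with 119 and 125 pairs in all, and of the 4 mesoderm and endoderm markers 1 was listed in each, Gata4 with 29 and 41 pairs.

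H3K27me3 is deposited by Polycomb repressive complex 2 and marks silent developmental genes in stem cells, often at promoters rich in the dinucleotide CG. A transcript made across the start of such a gene lies next to that promoter while it is still attached to its template. Some opposite-strand lncRNAs have been studied as regulators of their neighbours, such as Hand2os1 beside the heart transcription factor gene Hand2, whereas most have no known function.

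The sequences below show the ground on which the lncRNA and the sense gene meet. Each is the 250 bases before the annotated start of a sense gene that a member crosses, from build GRCm38.p6, written along the sense gene with CG dinucleotides in capitals. Such windows were read for 10 sense genes, and a DNA tag of the gene's own opposite-strand lncRNA was centred in 6 of them. Zmiz1, Nkx2-2 and Sp3 are shown as examples of these, and Vax2 because its lncRNA was listed with H3K27me3 selection only.

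Before Zmiz1, chr14:25458935-25459184, plus strand: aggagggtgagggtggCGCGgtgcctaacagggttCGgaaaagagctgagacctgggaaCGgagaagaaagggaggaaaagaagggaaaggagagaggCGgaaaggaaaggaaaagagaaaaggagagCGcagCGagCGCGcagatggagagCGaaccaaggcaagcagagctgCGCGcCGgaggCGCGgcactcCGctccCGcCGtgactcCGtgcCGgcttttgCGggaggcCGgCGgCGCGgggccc
Before Nkx2-2, chr2:147194244-147194493, minus strand: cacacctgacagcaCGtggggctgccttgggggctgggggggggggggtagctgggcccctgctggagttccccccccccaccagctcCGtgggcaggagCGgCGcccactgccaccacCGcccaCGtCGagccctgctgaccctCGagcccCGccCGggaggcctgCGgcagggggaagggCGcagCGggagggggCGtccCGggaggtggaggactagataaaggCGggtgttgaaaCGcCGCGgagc
Before Sp3, chr2:72980447-72980696, minus strand: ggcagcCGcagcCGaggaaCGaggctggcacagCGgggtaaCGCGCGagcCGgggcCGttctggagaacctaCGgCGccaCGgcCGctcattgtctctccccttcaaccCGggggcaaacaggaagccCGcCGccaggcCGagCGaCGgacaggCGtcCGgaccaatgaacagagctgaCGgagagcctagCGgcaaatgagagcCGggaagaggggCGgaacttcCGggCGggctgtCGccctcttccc
Before Vax2, chr6:83711014-83711263, plus strand: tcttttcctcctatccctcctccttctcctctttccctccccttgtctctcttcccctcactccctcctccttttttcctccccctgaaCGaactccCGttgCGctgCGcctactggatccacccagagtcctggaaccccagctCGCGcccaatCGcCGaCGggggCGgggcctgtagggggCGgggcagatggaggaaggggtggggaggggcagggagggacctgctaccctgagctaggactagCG

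The CG count was 25 before Zmiz1, 19 before Nkx2-2, 28 before Sp3 and 12 before Vax2. Among 32851 RefSeq windows of the same length before gene starts, 10.7%, 19.7%, 7.61% and 33.5% held at least as many, in that order. The Zmiz1 window held 1 DNA tag of Zmiz1os1 in H3K27me3-RADIP, the Nkx2-2 window held 2 of Nkx2-2os in Input, the Sp3 window held 1 of Sp3os in Input, and the Vax2 window held none of Vax2os. Of the windows not printed, that before Tbx3 held 2 tags of its lncRNA and those before Hoxa11 and Zfp335 held 1 each, all in H3K27me3-RADIP, and those before Hand2, Pax6 and Jun held none. RefSeq windows could be matched for 36 of the 51 sense genes, with a median of 14.5 CG dinucleotides against 6 over all windows. All windows include those of non-coding genes, among them 29 of the members, with a median of 6. The sense genes are all protein-coding, and they were not compared with coding genes alone.

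A single pair shows what was measured. The Zmiz1os1 pair with its DNA tag nearest the Zmiz1 start, 15 bp from it in H3K27me3-RADIP, joined an intronic RNA tag 4.90 kb away to DNA inside the window printed above. Both tags are 24 bases long and are given as reference letters with CG in capitals, the RNA tag along the lncRNA and the DNA tag on the plus strand.

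Zmiz1os1 RNA tag, chr14:25454262-25454285, minus strand: acacccatgccagccttccagtcc
Zmiz1os1 DNA tag, chr14:25459158-25459181, plus strand: ttgCGggaggcCGgCGgCGCGggg
Vax2os RNA tag, chr6:83712016-83712039, minus strand: gggaaataaggctgggttgaagCG
Vax2os DNA tag, chr6:83712002-83712025, plus strand: gtCGgatgCGtcccCGcttcaacc

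The Vax2os pair lay 750 bp from the Vax2 start, and its tags were centred 0.014 kb apart, so that the RNA and the DNA came from nearly the same place. Such short distances made up a small part of the data. Tags lay under 100 bp apart in 73 of the 489 member pairs of Input (14.9%, 12.0 to 18.4) and in 95 of the 802 of H3K27me3-RADIP (11.8%, 9.79 to 14.3).

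More opposite-strand lncRNAs were listed after H3K27me3 selection than in Input. A combination of an RNA and a 25-kb bin enters the tables only with a q-value of at most 0.1, for which it needed at least 7 pairs, so a lncRNA that is not listed can still have had pairs. Of the 51 members, 30 were listed in Input and 45 in H3K27me3-RADIP. The lists shared 24 members, while 21 were listed in H3K27me3-RADIP only (41.2%) and 6 in Input only (11.8%). Over all lncRNA names the shares were 33.5% for H3K27me3-RADIP only and 21.8% for Input only, and among the 9 Snhg lncRNAs, host transcripts of small nucleolar RNAs, 1 was listed in each library only. Most members stood close to the limit, since 17 of the 21 listed in H3K27me3-RADIP only had at most 10 pairs and 5 of the 6 listed in Input only. With at least 10 pairs asked for, the lists held 21 members for Input and 25 for H3K27me3-RADIP, with 4 in Input only and 8 in H3K27me3-RADIP only.

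**Figure D1:**
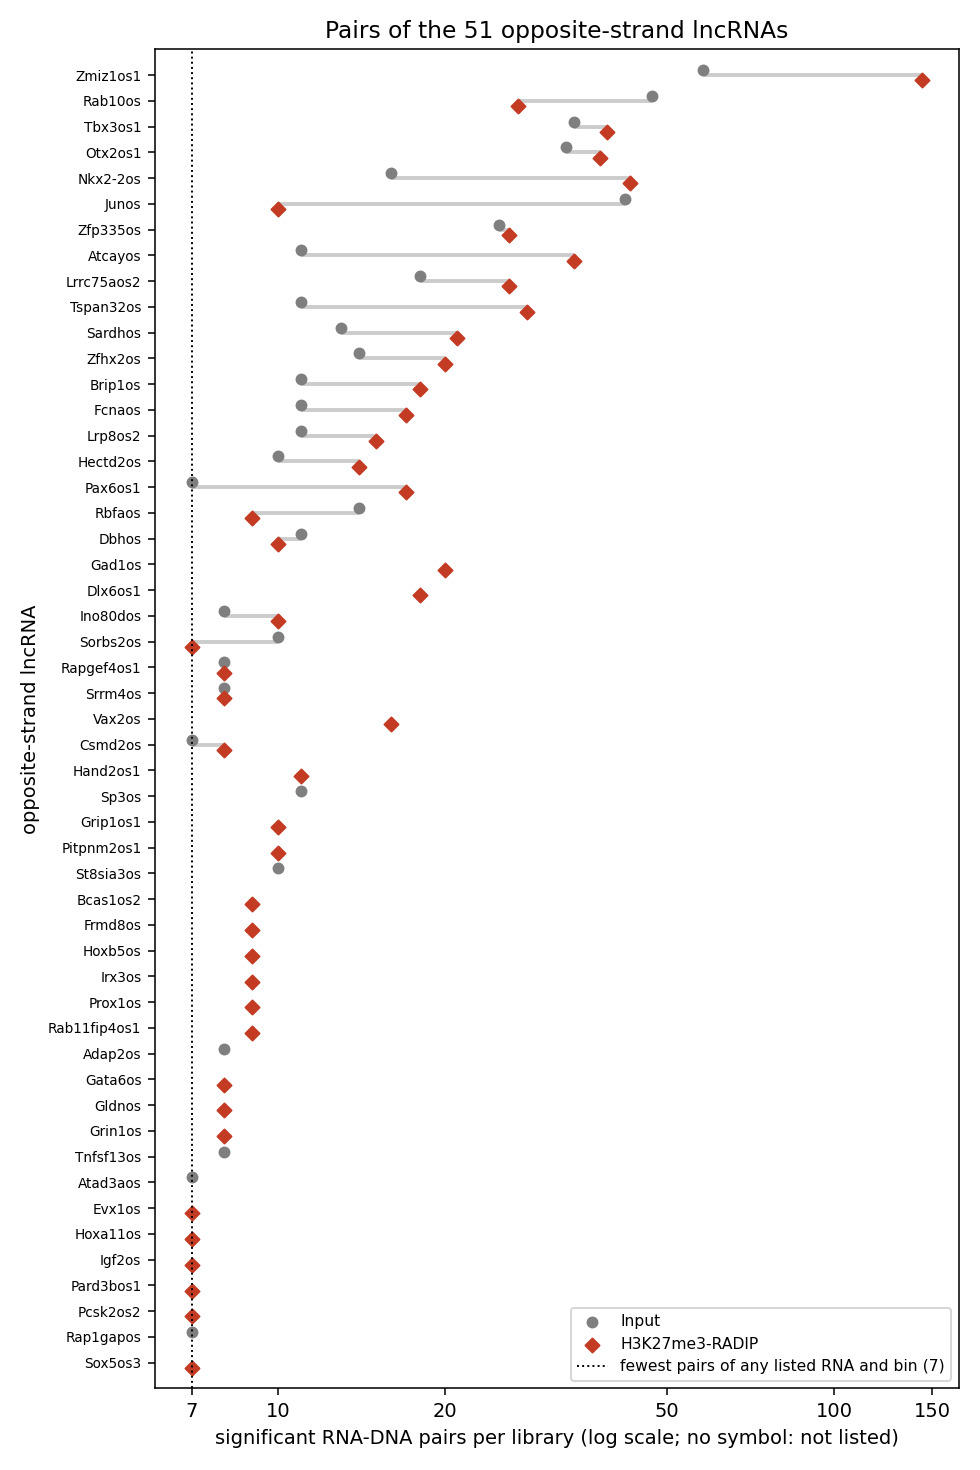
Significant RNA–DNA pairs of each of the 51 opposite-strand lncRNAs (log scale) in Input (grey circles) and H3K27me3-RADIP (red diamonds), with no symbol where the lncRNA was not listed and a dotted line at 7 pairs, the fewest of any listed combination. Zmiz1os1 led in both libraries with 58 and 144 pairs, and most members listed in 1 library lie between 7 and 11 pairs.

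The members listed in H3K27me3-RADIP only were led by Gad1os with 20 pairs, Dlx6os1 with 18 and Vax2os with 16. Gad1 encodes a GABA-synthesizing enzyme, and Dlx6 and Vax2 encode homeobox factors of the forebrain and the ventral eye. Gad1 RNA had 17 and 31 pairs, a log2 ratio of 0.75 (-0.15 to 1.70). Hand2os1 had 11 pairs, Grip1os1 and Pitpnm2os1 had 10 each, and the other 15 had 7 to 9. Those with 7 pairs, the lowest possible, were Evx1os, Hoxa11os, Igf2os, Pard3bos1, Pcsk2os2 and Sox5os3. The 6 listed in Input only were Sp3os with 11 pairs, St8sia3os with 10, Adap2os and Tnfsf13os with 8, and Atad3aos and Rap1gapos with 7. The ranges of the 2 sets thus overlapped between 7 and 11 pairs.

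Taken as a sum, the members had 489 Input pairs against 802 with H3K27me3 selection, or 374.7 and 566.7 per 1000000 pairs of their library. The log2 ratio of H3K27me3-RADIP over Input was 0.60 (0.43 to 0.76), against 0.26 for all other lncRNAs. Members listed in 1 library held 51 of the Input pairs and 205 of the H3K27me3-RADIP pairs. They count as absent from the other library, where pairs below the limit were removed. The listing limit thus enters this ratio, and the interval does not cover it. Leaving out Zmiz1os1, the member with the most pairs, gave 431 and 658 pairs and a log2 ratio of 0.49 (0.32 to 0.67). Scaled to the pairs of all lncRNAs instead of all pairs, the log2 ratio of the sum was 0.33.

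The pairs were also split by whether both libraries listed the bin. This split follows the readout, because a bin that changed across the limit is counted in 1 library only and may hold pairs below the limit in the other, so it does not show where the excess arose. In the 30 combinations of a member and a bin that both libraries listed, the members had 363 Input pairs against 396 after selection, a log2 ratio of 0.0088 (-0.20 to 0.22). The other lncRNAs had a log2 ratio of 0.07 (0.04 to 0.09) in their 1496 shared combinations. Outside the shared bins, H3K27me3-RADIP listed 42 member combinations with 406 pairs, of which 201 pairs belonged to members that Input listed too. Input listed 15 such combinations with 126 pairs. Their median was 9 pairs in H3K27me3-RADIP and 8 in Input, near the limit of listing.

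**Figure D2:**
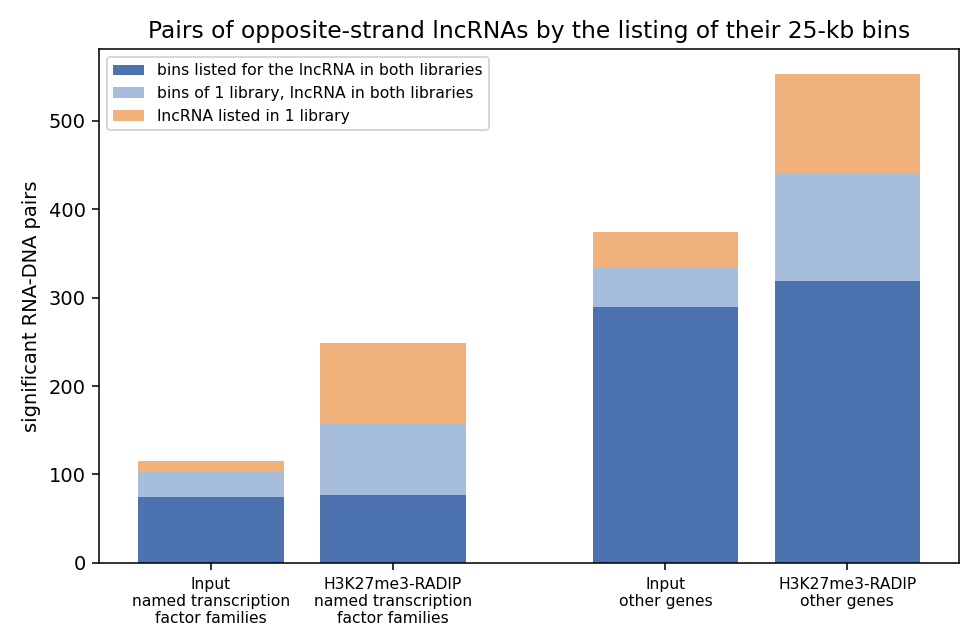
Number of significant RNA–DNA pairs (bars from 0) in Input and H3K27me3-RADIP for the 15 members beside genes of named transcription factor families and the 36 beside other genes, split by whether the 25-kb bin, or the lncRNA itself, was listed in both libraries. The shared part was 74 and 77 pairs in the first group and 289 and 319 in the second, while the parts listed in 1 library were larger in H3K27me3-RADIP.

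Members were grouped by a name pattern for transcription factor families, most with roles in development, which took in 15 members, beside Dlx6, Evx1, Gata6, Hand2, Hoxa11, Hoxb5, Irx3, Nkx2-2, Otx2, Pax6, Sox5, Sp3, Tbx3, Vax2 and Zfhx2. Jun and Prox1 also encode transcription factors but are outside the pattern. Of the 15, 9 were listed in H3K27me3-RADIP only (60%, against 33.5% of all lncRNAs), 5 in both libraries and 1, Sp3os, in Input only. Of these 9, 6 had under 10 pairs. The pairs of the 15 went from 115 in Input to 249 in H3K27me3-RADIP, a log2 ratio of 1.00 (0.67 to 1.33). Members listed in 1 library held 11 of the 115 and 92 of the 249 pairs and count as absent from the other. The 36 members beside other genes had 374 and 553 pairs and a log2 ratio of 0.45 (0.26 to 0.64), with 12 listed in H3K27me3-RADIP only. In this group, members listed in 1 library held 40 and 113 pairs. The listing limit thus enters both ratios, and their intervals do not cover it. The gap between the groups depended on the pattern. With Junos and Prox1os added to the first group, the pairs were 157 and 268 (log2 0.65, 0.37 to 0.95) there and 332 and 534 (log2 0.57, 0.37 to 0.77) for the rest. In shared bins the group near transcription factor genes had 74 and 77 pairs, under the same limit of this split. The difference between the groups was not tested, since the tables hold no replicates.

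Of the 24 members listed in both libraries, 8 were higher in H3K27me3-RADIP by a log2 ratio of at least 0.5 and 4 were lower by as much. Scaled to the pairs of all lncRNAs, 5 were higher and 5 lower. Over the 572 lncRNAs in both libraries, 24.5% were higher and 23.3% lower by this rule. The median log2 ratio of the 24 was 0.27, against -0.01 for all lncRNAs in both, 0.01 for the Snhg lncRNAs and -0.76 for the Platr lncRNAs, which were named for their association with pluripotency. The interval stayed above 0 for Atcayos, Nkx2-2os, Tspan32os and Zmiz1os1 and below 0 for Junos and Rab10os. The other 18 had intervals that included 0.

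**Figure D3:**
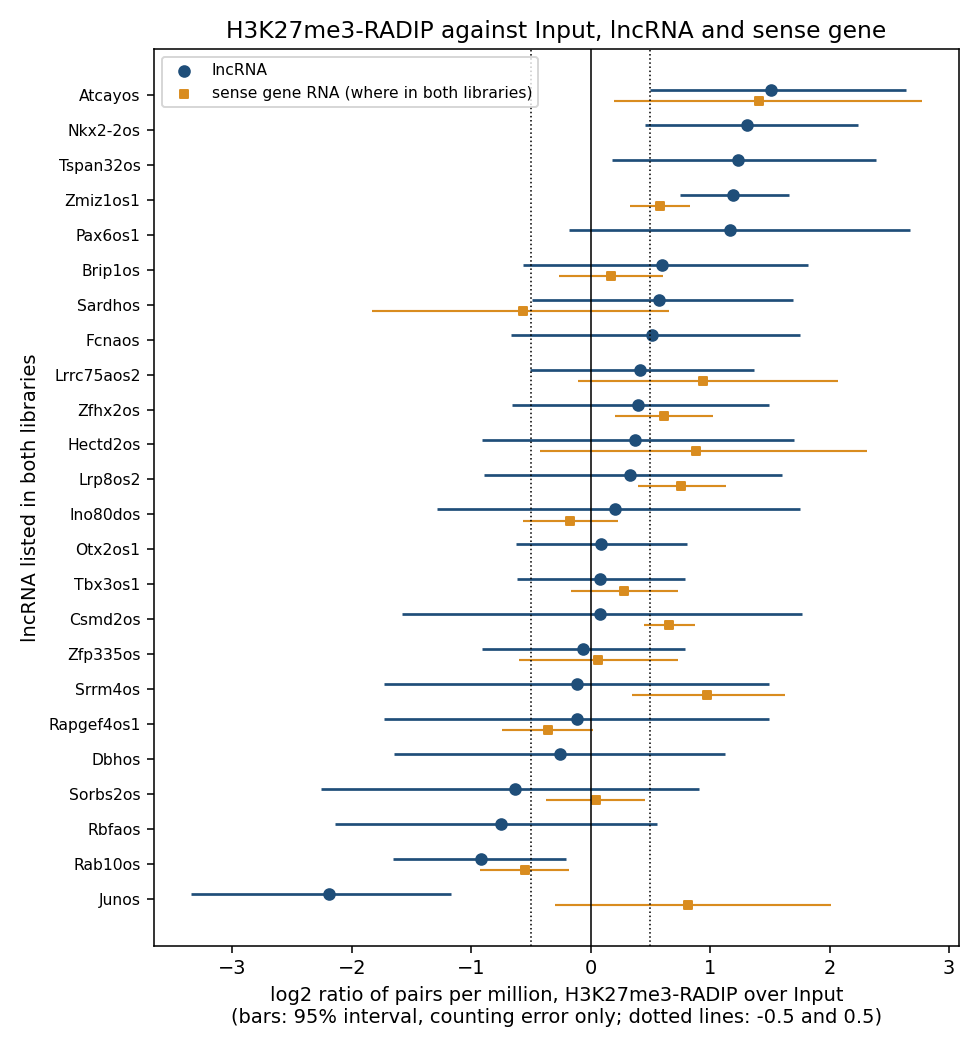
Log2 ratio of H3K27me3-RADIP over Input, in pairs per 1000000, for the 24 opposite-strand lncRNAs listed in both libraries (blue) and for their sense gene RNA where it was in both (orange), with 95% intervals for counting error. Atcayos had the highest value at 1.51 and Junos the lowest at -2.19, and 16 of the 24 lncRNA values lie above 0.

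Zmiz1os1 (chr14:25257523-25461128, minus strand) crosses the start of Zmiz1, which encodes a transcriptional coregulator, and begins 1943 bp inside it. Input gave it 58 pairs over 6 bins, and H3K27me3-RADIP gave 144 over 9, which is a log2 ratio of 1.20 (0.75 to 1.66), or 1.81 at a q-value of at most 0.01. In the 6 bins listed in both, its pairs went from 58 to 92, a log2 ratio of 0.55 (0.06 to 1.05). The 3 bins listed with H3K27me3 selection only held 17, 19 and 16 pairs, and the last of them holds the start of Zmiz1. Zmiz1 RNA itself had 210 and 340 pairs over all its bins, a log2 ratio of 0.58 (0.33 to 0.83). Over the 9 bins in which either library listed Zmiz1os1, Zmiz1 RNA had 28 Input pairs and 35 after selection, fewer than the lncRNA in both. All RNAs other than Zmiz1os1 had 57 and 194 pairs in the same 9 bins, a log2 ratio of 1.65.

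Junos (chr4:95051534-95167318, plus strand) crosses the start of Jun, which encodes a subunit of the AP-1 transcription factor. It went the other way, from 42 Input pairs over 4 bins to 10 H3K27me3-RADIP pairs in 1 bin, a log2 ratio of -2.19 (-3.35 to -1.17). In the single shared bin, which holds the Jun start, it had 13 and 10 pairs, with a log2 ratio of -0.50 (-1.84 to 0.81). Input listed 3 more bins further along the lncRNA, with 8, 13 and 8 pairs, which H3K27me3-RADIP did not list and which may have held pairs below the limit there. Jun RNA had 11 and 21 pairs, with a log2 ratio of 0.82 (-0.30 to 2.02). In the bins of Junos it had 11 pairs before and 12 after selection.

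Nkx2-2os (chr2:147184083-147331681, plus strand) lies across Nkx2-2, a homeobox gene of the ventral neural tube and the pancreas. Input held 16 of its pairs, over 2 bins, and H3K27me3-RADIP 43, over 4, a log2 ratio of 1.31 (0.45 to 2.24). Its 1 shared bin, at the start of Nkx2-2, held 9 and 8 pairs. Along the body of the lncRNA, H3K27me3-RADIP listed 3 bins with 8, 12 and 15 pairs that Input did not list, and Input listed 1 bin with 7 pairs that H3K27me3-RADIP did not list. Nkx2-2 RNA was not listed in Input and had 15 pairs in H3K27me3-RADIP, all in the bin at its start.

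Vax2os (chr6:83692806-83712201, minus strand) begins 937 bp inside Vax2. It was not listed in Input and had 7 and 9 pairs in 2 bins in H3K27me3-RADIP. Vax2 RNA was likewise listed in H3K27me3-RADIP only, with 25 pairs, of which 9 lay in the bins of Vax2os. RNAs other than Vax2os had 32 and 95 pairs in these bins, a log2 ratio of 1.45.

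**Figure D4:**
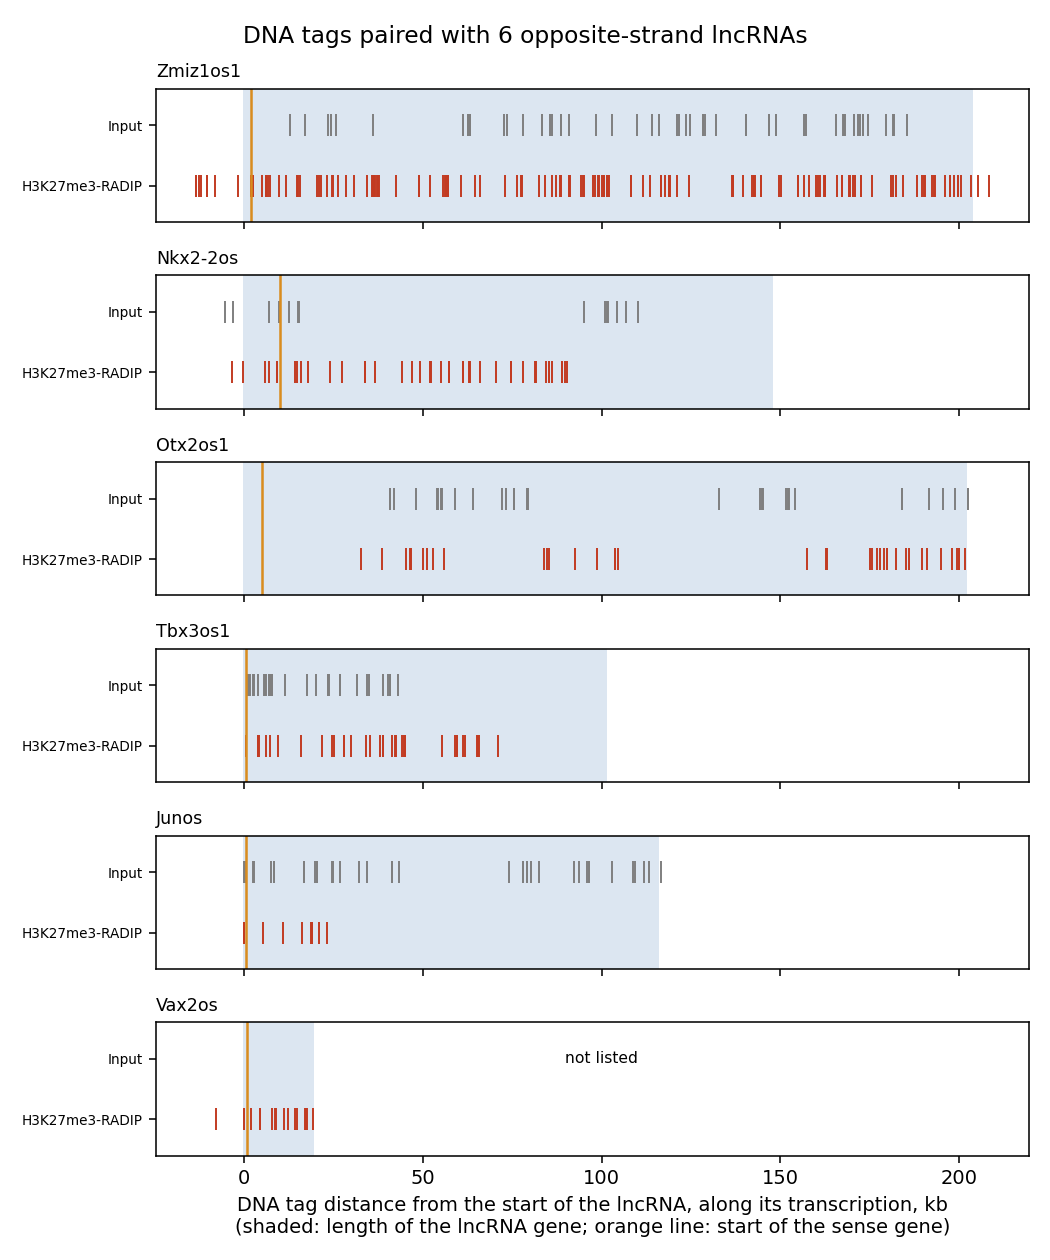
Positions of the DNA tags of 6 opposite-strand lncRNAs in kb from the start of the lncRNA along its transcription, in Input (grey) and H3K27me3-RADIP (red), with the lncRNA gene shaded and the start of the sense gene as an orange line. Tags of Zmiz1os1 run along its whole gene in H3K27me3-RADIP, those of Junos lie near its start there and along its whole gene in Input, and Vax2os was not listed in Input.

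Among the other members with many pairs, Rab10os, which overlaps the end of the vesicle transport gene Rab10, had 47 and 27 pairs, a log2 ratio of -0.92 (-1.66 to -0.20). Its 2 bins were listed in both libraries, so this value does not rest on bins of 1 library. Rab10 RNA was lower as well, with 146 and 108 pairs and a log2 ratio of -0.55 (-0.92 to -0.18), and within the same bins it had 57 and 34 pairs. Tbx3os1, beside the T-box gene Tbx3, had 34 and 39 pairs, and Otx2os1, beside the homeobox gene Otx2, had 33 and 38. Both log2 ratios were close to 0, at 0.08 (-0.62 to 0.79) and 0.09 (-0.62 to 0.81). With combinations at a q-value of at most 0.01 alone, the ratio of Otx2os1 was 1.62. Tbx3 RNA had 76 and 100 pairs, a log2 ratio of 0.28 (-0.17 to 0.73), whereas Otx2 RNA was not listed in either library. Zfp335os had 25 and 26 pairs and a log2 ratio of -0.06 (-0.91 to 0.79), and Zfp335 RNA had 38 and 43, a log2 ratio of 0.06 (-0.60 to 0.73).

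Atcayos, at the end of Atcay, a gene of the nervous system mutated in inherited ataxia, had 11 and 34 pairs and a log2 ratio of 1.51 (0.50 to 2.64), or 0.82 (-0.30 to 2.02) in its shared bin. Atcay RNA had 8 and 23 pairs, a log2 ratio of 1.41 (0.20 to 2.78). Tspan32os had 11 and 28 pairs, a log2 ratio of 1.23 (0.18 to 2.39), and Tspan32 RNA was not listed in Input and had 8 pairs in H3K27me3-RADIP. In its shared bin Tspan32os had 11 and 12 pairs, a log2 ratio of 0.0088. Pax6os1, beside the eye and brain gene Pax6, had 7 and 17 pairs and no shared bin, with a log2 ratio of 1.16 (-0.18 to 2.68). Pax6 RNA was listed in H3K27me3-RADIP only, with 21 pairs.

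The remaining members past a log2 ratio of 0.5 in either direction had intervals that included 0. Brip1os had 11 and 18 pairs (log2 0.59), Sardhos 13 and 21 (0.58) and Fcnaos 11 and 17 (0.51). In shared bins Brip1os had 11 and 9 pairs, a log2 ratio of -0.41, and Sardhos had 13 and 13, a log2 ratio of -0.12. The ratio of Sardhos was -0.11 at a q-value of at most 0.01. Rbfaos had 14 and 9 pairs (-0.75) and Sorbs2os 10 and 7 (-0.63). Dbhos had 11 and 10 pairs, with a log2 ratio of -0.25 (-1.65 to 1.12), and neither Dbh nor Rbfa RNA was listed. Lrrc75aos2 had 18 and 26 pairs, with a log2 ratio of 0.41 (-0.51 to 1.37), and Lrrc75a RNA had 12 and 25, with a log2 ratio of 0.94 (-0.10 to 2.07). In shared bins, 3 members were higher by at least 0.5 and 4 were lower, the latter being Rab10os, Rbfaos, Sorbs2os and Hectd2os. Hectd2os had 10 and 14 pairs in all, a log2 ratio of 0.37 (-0.91 to 1.70), but 10 and 7 in its shared bin, a log2 ratio of -0.63 (-2.26 to 0.91).

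The sense genes were examined next, since each lncRNA was named for one of them. RNA of 33 of the 51 sense genes was listed in both libraries, of 7 in H3K27me3-RADIP only, of none in Input only, and of 11 in neither. Of the 33, 13 were higher in H3K27me3-RADIP by a log2 ratio of at least 0.5 and 3 were lower. Over the 8158 protein-coding RNAs (pcRNAs) in both libraries, 17.0% were higher and 25.7% lower, and of all listed pcRNAs 13.5% were in H3K27me3-RADIP only. The 7 sense genes listed in H3K27me3-RADIP only were Vax2 with 25 pairs, Pax6 with 21, Igf2 with 16, Nkx2-2 with 15, Gldn and Tspan32 with 8, and Hoxa11 with 7. Igf2 encodes an imprinted growth factor, and 4 of the 7 are beside members of the transcription factor group.

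Members and sense genes did not always fall on the same side. For 17 members both RNAs were in both libraries, and in 2 of them, Atcayos and Zmiz1os1, both were higher, while for Rab10os both were lower. Junos was lower and Jun higher, and Sardhos was higher and Sardh lower, although the intervals of Jun and Sardh RNA included 0. For 6 members that were past neither limit the sense gene was higher, such as Csmd2, with 296 and 507 pairs and a log2 ratio of 0.66 (0.45 to 0.87). For Hand2os1, Dlx6os1, Evx1os, Hoxb5os and Irx3os the lncRNA was listed in H3K27me3-RADIP and the sense gene in neither library. For Sp3os, listed in Input only, Sp3 RNA had 98 and 59 pairs, a log2 ratio of -0.85 (-1.34 to -0.37).

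Pairs of the sense gene were found in the same bins as the lncRNA for 16 of 30 members in Input (53.3%, 36.1 to 69.8) and 25 of 45 in H3K27me3-RADIP (55.6%, 41.2 to 69.1). At a q-value of at most 0.01 the counts were 8 and 15. Summed over all bins listed for the lncRNA, including those without the sense gene, the sense gene had more pairs than the lncRNA for 10 of these 16 members without selection. With selection it did so for 15 of the 25. An RNA of some protein-coding gene was listed in a bin of 24 of 30 members in Input (80.0%, 62.7 to 90.5) and of 40 of 45 in H3K27me3-RADIP (88.9%, 76.5 to 95.2). For the other lncRNAs these shares were 67.0% (63.7 to 70.2) and 71.0% (68.0 to 73.7). Members were chosen by a name that places them at a protein-coding gene. The other lncRNAs were not, so the shares are not compared like with like.

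Other RNAs in the members' bins moved with them in some cases and against them in others. RNAs other than the member itself were listed in both libraries in the bins of 14 of the 21 members listed in H3K27me3-RADIP only, with a median log2 ratio of 0.71 and a range of -0.50 to 2.39. The highest was in the bin of Hoxa11os, where 18 and 102 pairs of other RNAs were found. For the 22 members listed in both libraries with such values the median was 0.37, with the same sign as the member in 14 and the opposite sign in 8, such as Rbfaos, at -0.75 against 1.13 for the other RNAs. For the 4 listed in Input only it was 0.30, with a range of -0.06 to 0.80. Whether the DNA of a bin, rather than the lncRNA, sets these ratios was not tested.

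All member pairs were in *cis*, with both tags on 1 chromosome, and nearly all were local. The median distance between tag centres was 2.72 kb (2.03 to 3.58) for Input and 2.25 kb (1.95 to 2.67) for H3K27me3-RADIP, and these intervals overlapped. Within 25 kb lay 87.3% and 88.0% of the pairs. Distances over 100 kb were seen for 11 pairs in Input (2.25%, 1.26 to 3.98) and 12 in H3K27me3-RADIP (1.50%, 0.86 to 2.60), and the longest were 152.6 and 166.9 kb. These pairs belonged to Junos, Nkx2-2os, Otx2os1 and Zmiz1os1 in Input and to the last 3 of these in H3K27me3-RADIP.

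Pooled over pairs, the other lncRNAs reached much further, with median distances of 32.0 kb for Input against 63.0 kb after selection and 34.8% and 42.2% of pairs over 100 kb. Taken per RNA, the distances were alike. The median of the members' own medians was 2.38 kb before and 2.14 kb after selection, against 2.18 and 2.19 kb for the other lncRNAs. A pooled value gives more weight to RNAs with many pairs. The most bins of any member was 6 in Input and 9 in H3K27me3-RADIP, whereas other lncRNAs had up to 189 and 408. Of the members, 23 of 30 and 30 of 45 were listed in 1 bin.

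Most DNA tags lay within the lncRNA's own gene, 412 of 489 before selection (84.3%) and 669 of 802 after it (83.4%), and 28.0% and 29.3% lay within the sense gene. Tags upstream of the lncRNA's own start were few, at 16 (3.27%, 2.02 to 5.25) and 45 (5.61%, 4.22 to 7.43). Within 2 kb of the start of the sense gene lay 28 tags in Input (5.73%, 3.99 to 8.15) and 48 in H3K27me3-RADIP (5.99%, 4.54 to 7.85). The share thus did not differ beyond counting error, although such a tag was found for 7 of 30 Input members and 19 of 45 H3K27me3-RADIP members. The order of the shares turned within 1 kb, with 4.50% for Input against 3.37%, and at a q-value of at most 0.01, with 6.40% against 4.45%, while within 5 kb the shares were 9.20% and 13.0%. Sp3os had 8 of its 11 tags there in Input. In H3K27me3-RADIP, Hand2os1 had 7 of 11, Gldnos 6 of 8 and Hoxa11os 5 of 7.

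Members were also sorted by the position of the lncRNA relative to its sense gene. Of the 51, 25 cross the start of the sense gene, 16 lie inside it, 7 cross its end and 3, Atad3aos, Brip1os and Dbhos, lie beside its start. Those across the start had 274 and 501 pairs, a log2 ratio of 0.75 (0.54 to 0.97), and those inside had 82 and 152, a log2 ratio of 0.77 (0.38 to 1.18). Of these, 12 of the 25 and 8 of the 16 were listed in H3K27me3-RADIP only, against 3 and 2 in Input only. Such members count as absent from the other library, so the listing limit enters these ratios, and the intervals do not cover it. Those across the end had 104 and 121 pairs, a log2 ratio of 0.10 (-0.29 to 0.49), but 57 and 94 pairs without Rab10os, a log2 ratio of 0.60 (0.12 to 1.11). The 3 beside the start had 29 and 28, a log2 ratio of -0.17 (-0.97 to 0.63). Differences between these positions were not tested. All 11 and 12 pairs over 100 kb belonged to members across the start. These members also had the longest genes, with a median span of 43.1 kb. The median was 22.5 kb for those inside, 16.3 kb across the end and 17.8 kb beside the start. Position was not separated from gene length.

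RNA tags were mostly intronic. Exonic tags made up 16.6% of member pairs in Input (13.5 to 20.1) and 11.8% in H3K27me3-RADIP (9.79 to 14.3), against 28.4% and 36.6% for the other lncRNAs pooled over their pairs. Such a pooled share gives more weight to RNAs with many pairs, and the paper assigns most of the added exonic lncRNA tags to Malat1. A share per RNA was not computed for the other lncRNAs. Rab10os alone held 32 of the 81 exonic tags of Input, and without it the members' shares were 11.1% and 9.81%. The authors assigned RNA tags to genes by strand, so every tag lay on the strand of its lncRNA by construction. For 13 members another gene on the same strand overlaps, among them Zmiz1os1, Nkx2-2os, Junos, Tbx3os1 and Otx2os1, and tags in such an overlap cannot be assigned with certainty.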

How the data were processed

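RNA–DNA pairs from PGK12.1 mESCs were measured in Input and H3K27me3-RADIP. The authors split reads at the adaptor into an RNA tag and a DNA tag, aligned both to mm10 and named the RNA tags by GENCODE annotation. The submitters' processing notes name CASAVA 1.8.2, STAR 2.5.0a and BWA 0.7.15-r1140. The deposited tables give each pair a p-value (not used here) and a q-value from the authors' background model over RNAs and 25-kb bins, and the authors kept pairs with a q-value of at most 0.1. The largest q-value found was 0.0999 in Input and 0.1000 in H3K27me3-RADIP. Replicates had been merged by the authors, so the samples were grouped by these 2 tables.

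Lines per RNA name were counted and divided by all pairs of the library. Log2 ratios have exact conditional binomial 95% intervals shares have 95% Wilson intervals and medians have 95% intervals from ranked values, all for counting error only, since pairs amplified by PCR are not independent molecules. A log2 ratio of at least 0.5 in size was called higher or lower, with no test. The share of a library that 3 pairs make up is 0.000230% in Input and 0.000212% in H3K27me3-RADIP. Positions came from GENCODE M21 on the same build, an older release than the authors', in which all 51 identifiers and 49 names matched. The DNA bins were found from tag centres, and every RNA and bin then had a single q-value. Sequences came from the GRCm38.p6 genome and RefSeq promoter windows. Scripts used Python 3.11.15, numpy 2.4.6, pandas 2.3.3, scipy 1.17.1 and matplotlib 3.10.9, and were tested on simulated data.

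Members, groups and comparison lists were chosen with earlier results of these data known. Any member could be named. Values were given for Vax2os, Zmiz1os1 and Junos, the 10 members with the most pairs, the 5 highest and 5 lowest log2 ratios among members in both libraries with at least 20 pairs in all, the 5 with the most pairs among those in 1 library, and their sense genes. Pairs that the background model removed were not analysed here. Alternatives tried were a q-value of at most 0.01, repeated tag positions counted once, other scalings, folds and limits on pairs, matching by gene identifier, other definitions of distance, and other windows and bins.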

Additional observations from a re-analysis of the deposited data

How the results depend on the processing

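No paired analysis was possible because the authors merged the replicates of each condition into 1 table, which also left no replicate to leave out. The settings without close pairs, with shared bins, without Rab10os and with Junos and Prox1os in the transcription factor group were chosen after seeing the data. Of 244 values recomputed, 215 stayed within their interval or within 1.5 times the count, and the cause of the other values was not tested. Among the 244 were 158 log2 ratios of single members, of which 149 stayed. Their intervals are wide and some scalings shift them little, so that count says little about their stability. At a q-value of at most 0.01, 7 members left the set listed in both libraries and had no ratio to compare. The pairs of all members had a log2 ratio of 0.33 when scaled by the pairs of all lncRNAs, which shifts every ratio by -0.27, and 0.0088 in bins listed in both libraries, a choice of bins that itself follows the readout. Members higher and lower numbered 8 and 4 as reported, 5 and 5 with that scaling, 5 and 1 at an absolute log2 ratio of at least 1, and 3 and 4 in shared bins. With at least 10 pairs required, 21 members were listed in Input, 25 in H3K27me3-RADIP, 4 in Input only and 8 in H3K27me3-RADIP only. At a q-value of at most 0.01, Sardhos reversed to -0.11, the sense gene was in the same bins for 8 members in Input and 15 in H3K27me3-RADIP, Zmiz1os1 moved to 1.81 and Otx2os1 to 1.62, and 6.40% of DNA tags lay near the sense start in Input against 4.45% in H3K27me3-RADIP. In shared bins Brip1os reversed to -0.41, Nkx2-2os to -0.29 and Sardhos to -0.12, and among members not past the fold Hectd2os turned from 0.37 to -0.63 and Tbx3os1 from 0.08 to -0.35. Median distances to the annotated start of the lncRNA were 18.3 kb for Input against 18.4 kb after selection, and 4.17 and 3.03 kb without pairs whose tags lie within 100 bp. Over members listed in both libraries the medians were 3.22 and 2.77 kb. With each member weighted alike, 1.39% of Input pairs and 0.43% of H3K27me3-RADIP pairs lay over 100 kb. Within 5 kb of the sense start lay 9.20% of DNA tags in Input and 13.0% in H3K27me3-RADIP, and within 1 kb 4.50% and 3.37%. At this depth a member is listed from 7 pairs in a bin, and counting intervals of single members are wide.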
